A study of Mus musculus with 6 samples.

Results

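Naive pluripotency is the state of embryonic stem cells and of the early inner cell mass, and it is held by a network of transcription factors that activate one another's genes. Pou5f1 (Oct4) is at its core and stays on in the later, primed epiblast. Klf2, Klf4, Klf5, Esrrb, Tfcp2l1, Zfp42, Tbx3 and Nr0b1 mark or sustain the naive state and are lost as cells leave it, while Tcl1, a target of the network, encodes a co-activator of the kinase Akt and is not itself a transcription factor.

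These 10 genes were followed in mouse 129/Ola cells on day 3 of differentiation away from the embryonic stem cell state, on gelatin in serum-free N2B27 medium, which favours neural fates. They had 24 hours of trichostatin A (TSA), which blocks histone deacetylases, or of its solvent DMSO. There were 3 TSA samples and 3 DMSO samples, described as independent experiments, and the labels give no dose of TSA. The genes were found through the RefSeq accession of every non-control probe on the single-colour Agilent arrays: 13 of 41174 probes belonged to them, with 2 probes for Klf2 and 3 for Tfcp2l1. Of these, 12 were among the 28158 tested probes, and the third Tfcp2l1 probe was well above background on 0 of 6 arrays. The brightest tested probe on average stands for each gene, which gives 10 of 14526 tested genes, and the probe chosen for each was well above background on all 6 arrays. A level is the log2 processed signal minus the 75th percentile of its array, so levels are comparable between arrays for a probe and not between probes.

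The arrays lay on 3 slides, each with 1 TSA and 1 DMSO array of the same replicate number. Slide and independent experiment therefore cannot be told apart, and the word slide stands for both below. TSA replicate 2 stood apart: its 75th percentile was 310.6 intensity units, against 670.4 and 885.4 on TSA replicates 1 and 3 and between 632 and 926 on the DMSO arrays. The added control RNAs had a mean level of 5.06 on that array and of 3.71 on DMSO replicate 2, against 3.58 and 3.54 (TSA and DMSO) on slide 1 and 3.18 and 3.07 on slide 3. The members' median and the differences of Klf2, Klf4 and Nr0b1 are also given without this array. Differences of other genes and the marker sums include it unless stated.

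The promoters of 4 of the genes are shown because these genes carry the comparison below: Pou5f1 was lower in TSA on every slide, Klf4 and Tcl1 are those whose TSA and DMSO arrays did not overlap, and Zfp42 is a known target of Oct4. Each runs 5′ to 3′ on the strand of the gene, from 250 bases before to 50 bases after the start, from RefSeq on build GRCm38.p6, and 8 of the 10 genes had at least 1 such window. Capitals mark CCNCNCCC, letters of the kind bound by Klf and Sp factors, and ATGCAAAT, the octamer bound by Oct factors, on either strand; neighbouring matches overlap.
Pou5f1 (chr17:35505782-35506081, + strand, the first of 2 starts): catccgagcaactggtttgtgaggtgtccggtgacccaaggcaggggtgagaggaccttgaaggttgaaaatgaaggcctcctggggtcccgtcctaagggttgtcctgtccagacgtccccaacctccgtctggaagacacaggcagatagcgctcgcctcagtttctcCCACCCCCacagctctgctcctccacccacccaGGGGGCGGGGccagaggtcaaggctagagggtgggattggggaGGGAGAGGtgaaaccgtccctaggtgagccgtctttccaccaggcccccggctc
Klf4 (chr4:55532426-55532725, - strand): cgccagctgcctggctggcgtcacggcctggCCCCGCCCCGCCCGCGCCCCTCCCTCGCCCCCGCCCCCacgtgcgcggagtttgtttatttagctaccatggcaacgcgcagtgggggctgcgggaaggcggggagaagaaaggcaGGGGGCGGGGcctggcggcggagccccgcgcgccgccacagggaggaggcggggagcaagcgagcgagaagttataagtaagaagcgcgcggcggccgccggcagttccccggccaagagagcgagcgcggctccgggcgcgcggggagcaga
Zfp42 (chr8:43306960-43307259, - strand): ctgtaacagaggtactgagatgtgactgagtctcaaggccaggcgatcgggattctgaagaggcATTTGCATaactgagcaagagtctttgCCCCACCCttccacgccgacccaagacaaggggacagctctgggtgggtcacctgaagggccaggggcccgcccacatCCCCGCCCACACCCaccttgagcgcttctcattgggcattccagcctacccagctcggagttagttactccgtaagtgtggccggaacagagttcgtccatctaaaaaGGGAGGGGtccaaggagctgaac
Tcl1 (chr12:105222688-105222987, - strand): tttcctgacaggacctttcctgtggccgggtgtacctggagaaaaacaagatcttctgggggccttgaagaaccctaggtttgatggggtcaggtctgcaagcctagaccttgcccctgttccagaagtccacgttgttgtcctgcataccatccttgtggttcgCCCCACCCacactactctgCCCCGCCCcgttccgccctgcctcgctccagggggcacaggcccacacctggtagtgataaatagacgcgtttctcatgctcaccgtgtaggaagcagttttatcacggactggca
The octamer was found once, at position -186 of Zfp42, and in 1.74% of all 32851 promoter windows of this length. The letters CCNCNCCC were found 9 times in Klf4, 4 times each in Pou5f1 and Zfp42, and 2 times in Tcl1, and they occur at least once in 49.5% of all windows. On both strands AAGGTCA, letters of the Esrrb kind (4.72% of all windows), was found in 0 of the 10 windows of the 8 genes, TTCNNNGAA of the Stat kind (8.3%) in 1 window of Esrrb, and TATAAA (13.6%) in Tfcp2l1 and Nr0b1. A match describes the letters and is not a bound site. The Klf4 window holds 40 CpG sites, against 11 in each of the other 3 and a median of 7 over all windows.

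The study compared expression in day 3 cells with and without the deacetylase inhibitor. Here a gene is said to rise or fall if it passed an adjusted p of 0.05 (limma, Benjamini-Hochberg over all tested probes). Of the 10 genes 0 passed, against 1.41% of all tested genes (1.36% higher and 0.0551% lower in TSA). That does not show that the 10 genes were unchanged. An unadjusted p under 0.05 was reached by 1 of 10, Tcl1, which was higher, and by 14.9% of all tested genes (12.1% higher and 2.78% lower). Mean levels were higher in TSA for 7 genes and lower for Pou5f1, Nr0b1 and Tbx3, while 58.1% of all tested genes were higher. Differences ran between -0.50 and 0.65 on the log2 scale, with a median of 0.38, against 0.08 over all tested genes. The median was 0.42 without TSA replicate 2, 0.15 without DMSO replicate 1 and 0.18 without slide 1, and 0 genes passed in each case. By slide, the members' medians were 0.67, 0.26 and 0.21 on slides 1, 2 and 3, beside -0.03, 0.30 and 0.03 for all tested genes, so the gap was widest on slide 1 and absent on slide 2. With the slide as a replicate block, 0 passed again, against 3.34% of all tested genes (3.19% higher and 0.145% lower). An unadjusted p under 0.05 was then reached by 3 of 10 (Klf5 and Tcl1 higher, Pou5f1 lower), against 22.9% of all tested genes (17.5% higher and 5.45% lower). These are whole cultures, so fewer cells that express a gene and less RNA per cell cannot be told apart.

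**Figure D1:**
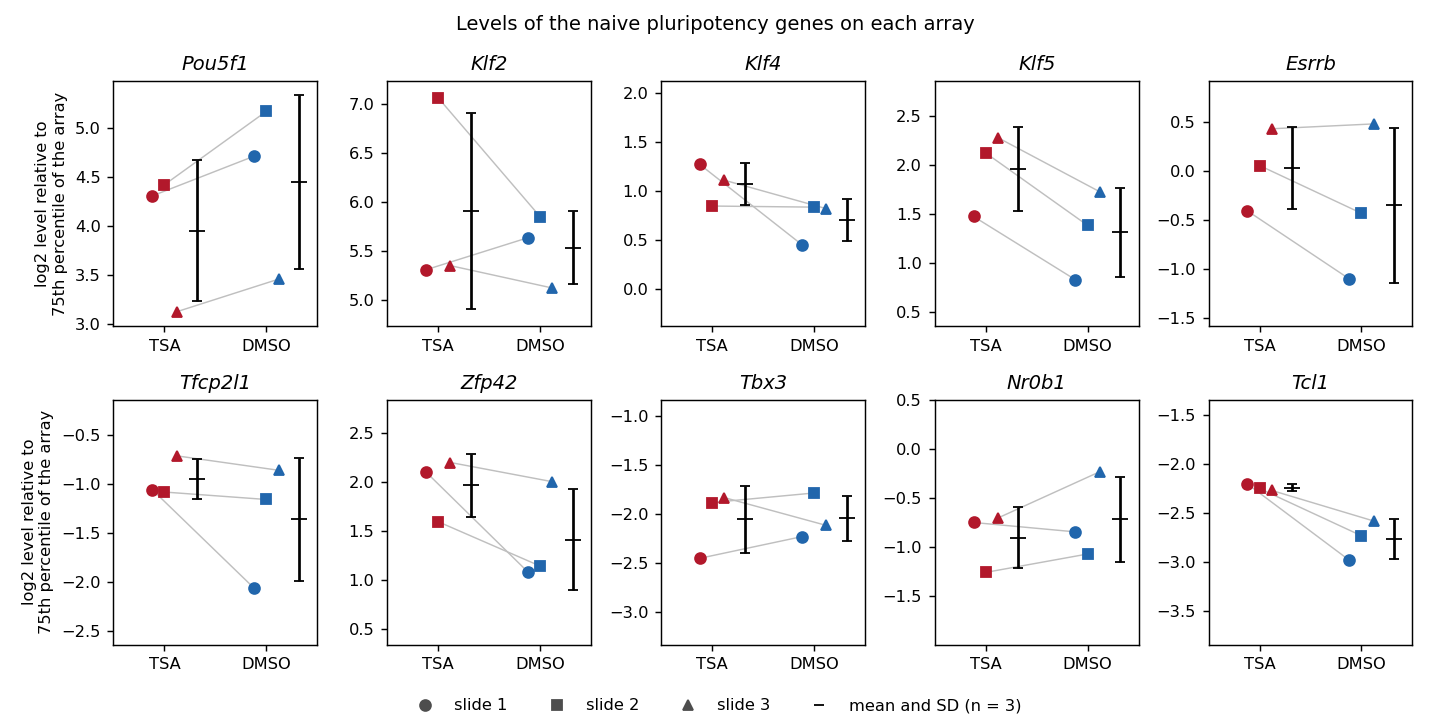
Log2 level relative to the 75th percentile of the array (vertical axis, each panel spanning the same 2.5 log2 units) for the 10 genes in TSA and DMSO; symbols are slides, grey lines join the arrays of a slide, and bars are the mean and SD of 3 arrays. Pou5f1 was lower in TSA on each slide, Klf4 and Tcl1 were higher without overlap, and Klf2 was highest on TSA replicate 2.

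Pou5f1, for the core factor Oct4, was still bright in every sample, with signals of 13286, 6664 and 7736 intensity units on TSA arrays 1, 2 and 3, against 16601, 23596 and 10194 on DMSO arrays 1, 2 and 3. Its levels were 4.31, 4.42 and 3.13 in TSA, against 4.71, 5.17 and 3.46 in DMSO. The treatments overlapped, because slide 3 was low in both, yet on each slide the TSA array was the lower, by differences of -0.41, -0.75 and -0.33. The difference was -0.50 ± 0.54 (SE, n = 3 each, limma adjusted p = 0.729), with a 95% interval for the fold of 0.289 to 1.74. Its size rested on single arrays: it was -0.08 without TSA replicate 3, -0.13 without DMSO replicate 2, -0.99 without DMSO replicate 3 and -1.09 with array weights. With the slide as a replicate block the SE was 0.19 and the interval 0.506 to 0.993 (limma adjusted p = 0.249). Over all tested genes, 21.5% were lower in TSA on all 3 slides, and Pou5f1 was the 1 of 10 members that was, joined by Nr0b1 with median centring.

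Of the Klf factors, zinc finger proteins that bind overlapping sets of enhancers in stem cells, Klf4 had levels of 1.27, 0.84 and 1.11 in TSA, against 0.45, 0.83 and 0.82 in DMSO. Every TSA array was above every DMSO array, but slide 2 differed by only 0.01. The difference was 0.37 ± 0.22 (limma adjusted p = 0.592, and 0.399 with the replicate block), or 1.30-fold with a 95% interval of 0.894 to 1.88. Without slide 1 it was 0.15, and without DMSO replicate 1 it was 0.25. Without slide 2 it was 0.55, and without TSA replicate 2 it was 0.49. Klf4 and Tcl1 were the 2 of 10 genes whose arrays separated upward, against 16.4% of all tested genes; with quantile normalization, with normexp and in the authors' table, 1 of 10, Tcl1, did.

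Klf5, which acts in both the inner cell mass and the trophectoderm, had levels of 1.48, 2.13 and 2.28 in TSA, against 0.83, 1.39 and 1.73 in DMSO. It was higher in TSA by a like amount on each slide, 0.65, 0.74 and 0.55, while the treatments overlapped because slide 1 was low in both. Its difference of 0.65 ± 0.33 was the highest of the 10 (1.56-fold, interval 0.905 to 2.71, limma adjusted p = 0.524). With the slide as a replicate block the interval was 1.15 to 2.14 and the adjusted p was 0.143. Without DMSO replicate 1 the difference was 0.40, without DMSO replicate 3 it was 0.85 and without TSA replicate 1 it was 0.89.

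Klf2, another Klf factor of the network, gave a value that rested on 1 array. Its brighter probe had levels of 5.31, 7.07 and 5.35 in TSA, against 5.64, 5.85 and 5.13 in DMSO. TSA replicate 2 lay far above the other 5 arrays, and on slides 1, 2 and 3 the differences were -0.33, 1.21 and 0.23. The difference was 0.37 ± 0.51 (limma adjusted p = 0.782) with that array and -0.21 (adjusted p = 0.722) without it. The second probe, with differences of -0.05, 0.28 and -0.0018 on the 3 slides, gave 0.08 ± 0.23 (adjusted p = 0.902), or -0.0034 with median centring. On the brighter probe, TSA replicate 2 exceeded the mean of the other TSA arrays by 1.73 as scaled to the 75th percentile and by 1.05 after quantile normalization. The part that this array's dimness and its high control RNAs had in the Klf2 value was not tested.

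Esrrb, an orphan nuclear receptor of the naive network, had levels of -0.41, 0.05 and 0.43 in TSA, against -1.10, -0.44 and 0.48 in DMSO. It was higher in TSA on slides 1 and 2, by 0.69 and 0.49, and about level on slide 3, at -0.05. The difference of 0.38 ± 0.44 did not pass (limma adjusted p = 0.745), with an interval of 0.627- to 2.69-fold. It was 0.0025 without DMSO replicate 1, 0.18 without TSA replicate 3, 0.59 without TSA replicate 1 and 0.79 without DMSO replicate 3. Tfcp2l1, a target of LIF and Stat3 signalling, had levels of -1.05, -1.08 and -0.71 in TSA, against -2.06, -1.16 and -0.86 in DMSO. Its difference of 0.41 ± 0.34 (adjusted p = 0.673) came mostly from slide 1, at 1.01, with 0.08 and 0.15 on slides 2 and 3, and it was 0.059 without DMSO replicate 1 and 0.66 without DMSO replicate 3. The other tested Tfcp2l1 probe gave 0.54 ± 0.28 (adjusted p = 0.524).

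Zfp42 (Rex1), whose expression is used as a reporter of the naive state, had levels of 2.11, 1.60 and 2.20 in TSA, against 1.09, 1.15 and 2.01 in DMSO. It was higher in TSA on each slide, by 1.02, 0.45 and 0.20, and the treatments overlapped through DMSO replicate 3. The difference was 0.56 ± 0.33 (limma adjusted p = 0.582, and 0.273 with the replicate block), or 1.47-fold with an interval of 0.858 to 2.52. It was 0.32 without slide 1 and 0.85 without DMSO replicate 3. Klf4, Klf5, Tfcp2l1, Zfp42 and Tcl1, 5 of the 10 genes, were higher in TSA on all 3 slides, against 32.6% of all tested genes; Klf4 left this set with quantile normalization, normexp and the authors' table, by slide 2.

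Tbx3, a T-box factor that also has roles in early endoderm, had levels of -2.45, -1.88 and -1.83 in TSA, against -2.23, -1.79 and -2.12 in DMSO. The difference was -0.01 ± 0.26 (limma adjusted p = 0.988), with a 95% interval of 0.648- to 1.52-fold. Nr0b1 (Dax1), a nuclear receptor without a classical DNA-binding domain that binds Oct4, had levels of -0.75, -1.26 and -0.71 in TSA, against -0.85, -1.07 and -0.23 in DMSO. The difference was -0.19 ± 0.30 (adjusted p = 0.810), with 0.10 on slide 1, which turned to -0.10 with median centring, and -0.19 and -0.47 on slides 2 and 3. It was -0.37 without DMSO replicate 2, -0.01 without TSA replicate 2 and 0.05 without DMSO replicate 3.

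Tcl1, the Akt co-activator, had the lowest adjusted p of the 10. Its signals were 146, 65.3 and 184 intensity units on TSA arrays 1, 2 and 3, against 80.0, 98.4 and 155 on DMSO arrays 1, 2 and 3. As levels these were -2.20, -2.25 and -2.27 in TSA, against -2.98, -2.73 and -2.58 in DMSO. All TSA arrays lay above all DMSO arrays, within 0.07 of one another, and the slides differed by 0.78, 0.48 and 0.31. The difference of 0.52 ± 0.20 was 1.44-fold (interval 1.03 to 2.003, unadjusted p = 0.0358, limma adjusted p = 0.366). It was 0.22 with normexp and 0.37 in the authors' table. With the replicate block the adjusted p was 0.235.

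**Figure D2:**
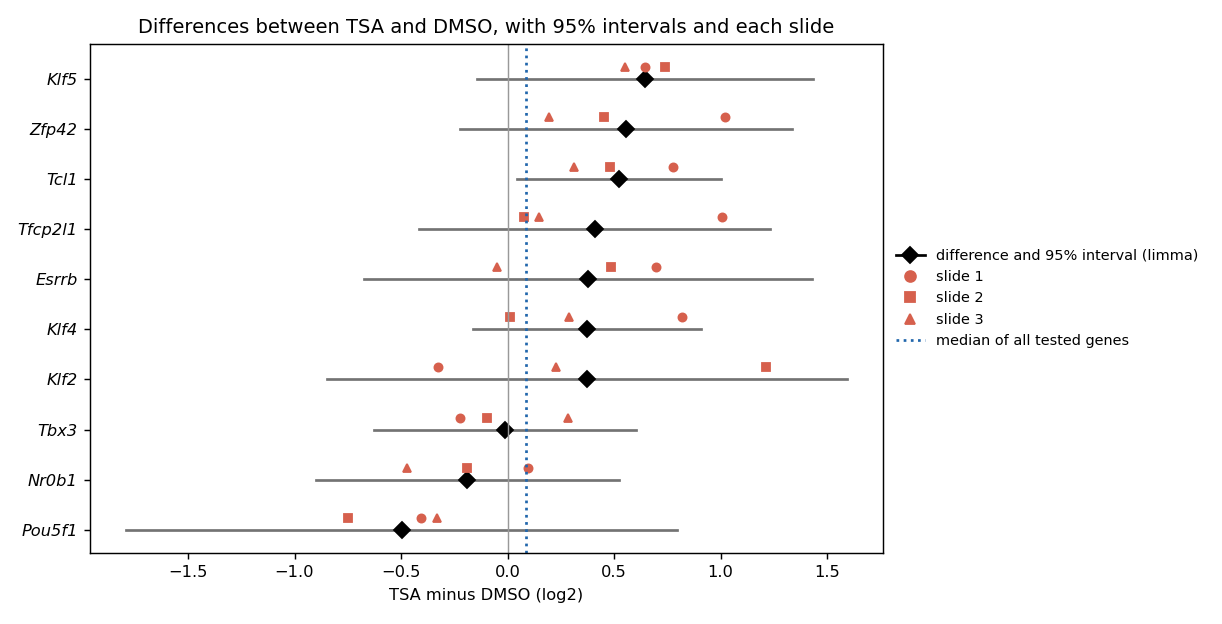
TSA minus DMSO on the log2 scale (horizontal axis) for the 10 genes: diamonds and lines are the limma difference and its 95% interval, coloured symbols the difference on each slide, and the dotted line the median of 0.08 over all tested genes. These intervals are from the fit without the slide term, before adjustment over all probes. That of Tcl1 lies above 0, and those of the other 9 genes span 0. With the slide as a replicate block, also before adjustment, the interval of Klf5 was above 0 as well (0.20 to 1.09). That of Pou5f1 was then below 0 (-0.98 to -0.0098).

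The size that the arrays could have shown bears on these values. The lowest absolute difference among genes that passed was 1.20 without the slide term and 1.16 with it. The median SE was 0.33 for the 10 genes and 0.29 for all tested genes, and with the replicate block it was 0.21 for the 10. The interval of Pou5f1 reached down to 0.289-fold, and those of Klf2, Klf5, Esrrb, Tfcp2l1 and Zfp42 reached up to between 2.35- and 3.01-fold. Changes within these bounds are not excluded by the fit without the slide term. With the replicate block the interval of Pou5f1 reached down to 0.506-fold. Those of Klf2, Klf5, Esrrb, Tfcp2l1 and Zfp42 then reached up to between 1.93- and 2.33-fold.

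The levels also varied between slides, which are also the independent experiments. Across the 3 DMSO arrays the highest and the lowest level of a member lay a median of 0.87 apart on the log2 scale, against 0.40 over all tested genes, and across the 3 TSA arrays 0.61, against 0.79. Esrrb spanned 1.58 and Pou5f1 1.71 in DMSO, which are 2.99- and 3.28-fold. In both treatments Pou5f1 was lowest on slide 3, whereas Klf5, Esrrb, Tfcp2l1, Zfp42 and Nr0b1 were highest there, under each of the 5 scalings tried. The share of all tested genes that were highest or lowest on slide 3 in both treatments was not computed. All 3 slides kept the same order in TSA and DMSO for Pou5f1, Klf5, Esrrb and Nr0b1, 4 of 10, against 40.5% of all tested genes. Klf5, Esrrb and Nr0b1 did so under each of the 5 scalings, whereas Pou5f1 did not with quantile normalization, normexp or the authors' table. Those scalings and median centring brought in other members, at 5 to 7 of 10, and the share of all genes was not computed for them. A test of the slide term in the fit with the replicate block, chosen after these values were seen, gave an unadjusted p under 0.05 for Pou5f1 (0.00276), Esrrb (0.0178) and Klf5 (0.0253). That is 3 of 10, against 17.3% of all tested genes, and 0 genes passed after adjustment (limma, adjusted p = 0.202, 0.276 and 0.281).

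Over the 6 arrays, the level of Pou5f1 ran against that of Zfp42 (Pearson r = -0.85), Esrrb (r = -0.79), Nr0b1 (r = -0.67) and Klf5 (r = -0.65). Esrrb ran with Tfcp2l1 (r = 0.91) and Klf5 (r = 0.88). These correlations describe 6 arrays that share slides in pairs and the scaling of each array. Of all tested genes, the closest in level over these arrays was 4833439L19Rik for Pou5f1 (r = 0.98), Tgfbi for Esrrb (r = 0.98), Cdcp1 for Zfp42 (r = 0.99) and Arntl2 for Klf5 (r = 0.99). Each was picked as the highest r among all tested genes over 6 values. A high r was therefore likely for any member and does not show shared regulation.

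**Figure D3:**
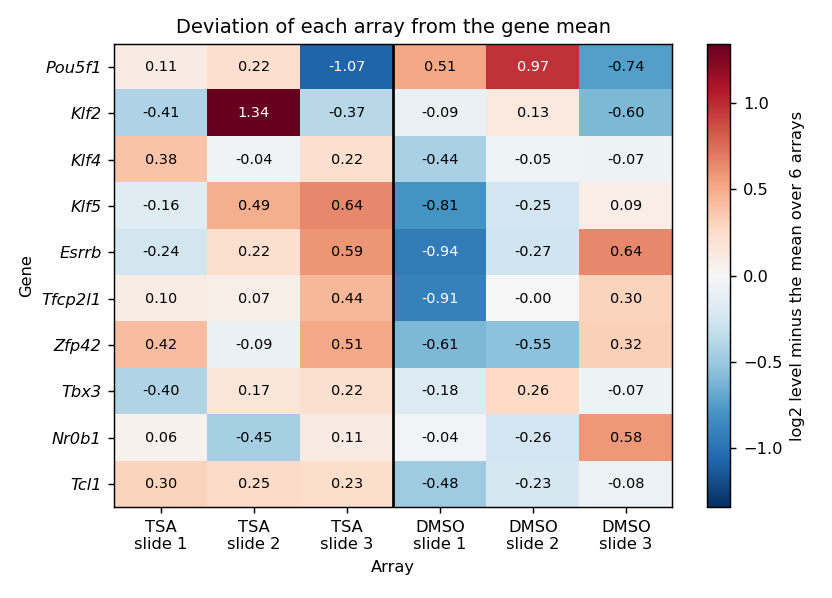
Log2 level of each gene on each array minus the mean over the 6 arrays (colour and printed number), with TSA arrays left of the line and DMSO arrays right of it. Pou5f1 was 1.07 and 0.74 below its mean on slide 3 in TSA and DMSO, where Esrrb was 0.59 and 0.64 above its own.

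Marker levels of other cell types also varied between slides. The summed level of 8 tested trophoblast markers, in multiples of the 75th percentile, was 70.2, 299.8 and 157 on TSA arrays 1, 2 and 3, against 54.5, 158 and 146 on DMSO arrays 1, 2 and 3. It was lowest on slide 1 and highest on slide 2 in both treatments; Klf5, Esrrb and Tbx3 were also lowest on slide 1 in both, but Klf5 and Esrrb were highest on slide 3. Such sums follow their brightest probes, which here were Krt18 and Krt8, keratins that other epithelia share, and, in the neural and fibroblast sums, Nes and Thy1. With each marker weighted alike, the median deviation of the trophoblast list from its gene means was -1.19, 0.63 and 0.26 on TSA arrays 1, 2 and 3, against -1.13, 0.48 and 0.55 on DMSO arrays 1, 2 and 3. Krt18, Krt8, Nes and Thy1 are named after their values were seen. The median difference of the list was 0.52, and Elf5 of that list was not well above background on enough arrays to be tested. The 12 mesendoderm markers summed to 12.8, 61.7 and 12.7 in TSA, against 5.25, 29.3 and 7.74 in DMSO, highest on slide 2 in both, with a median difference of 1.08. The 9 tested neural markers summed to values of 7.97 to 10.6 in TSA and of 10.1 to 12.7 in DMSO (median difference -0.38), and the 6 tested fibroblast markers to 10.74 to 15.1 in TSA and 5.41 to 8.001 in DMSO (median difference 1.16). Of these lists 0 genes passed without the slide term, and with it 5 mesendoderm, 2 trophoblast and 1 fibroblast gene rose and 1 neural gene fell, where 3.19% of all tested genes rose and 0.145% fell. The 6 tested markers of the 2-cell-like state summed to 3.26 to 6.50 in TSA and 0.333 to 0.575 in DMSO. Of them 5 rose without the slide term, where 1.36% of all tested genes rose, and the median difference of the 6 was 3.15. Tcstv3, which rose, and Zfp352, which did not and is named after its values were seen, were well above background on only 3 of 6 arrays. On DMSO arrays 1 and 2 the levels of Tcstv3, -6.29 and -6.24, were below the lowest level well above background there, -5.67 and -6.00. It was thus tested mainly through the TSA arrays, where it was high, and part of its difference lies near the floor. The part of these cell types in the members' values was not tested.

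Of 23 other genes listed for the naive network, 20 were tested, and Nanog, Prdm14 and Fgf4, which no probe named here, were not analysed. Of the 20, 11 had a higher mean in TSA (58.1% of all tested genes) and 0 passed, with a median of 0.13. Dppa2, a regulator of early embryonic genes, gave 0.96 ± 0.19 (limma adjusted p = 0.0830, and 0.0719 with the replicate block) and was higher in TSA on each slide, by 1.12, 0.95 and 0.80. Tdh, which breaks down threonine in stem cells, gave 0.83 ± 0.28 (adjusted p = 0.291), Manba, a lysosomal mannosidase, 0.63 ± 0.23 (adjusted p = 0.340) and Dppa5a, an RNA-binding protein of stem cells, 0.57 ± 0.22 (adjusted p = 0.377).

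Leukaemia inhibitory factor acts through Lifr, Il6st and Jak kinases on Stat3, which activates Klf4 and Tfcp2l1 in stem cells. Of 10 tested genes of that pathway, 9 had a higher mean in TSA (58.1% of all tested genes) and 8 were higher on all 3 slides (32.6% of all tested genes), with a median of 0.33 and 0 that passed. Stat3 itself had levels of 2.44, 2.70 and 2.48 in TSA, against 1.13, 1.57 and 1.84 in DMSO. These did not overlap, and 16.4% of all tested genes likewise had every TSA array above every DMSO array. The difference of Stat3 was 1.03 ± 0.25 (limma adjusted p = 0.138, and 0.0863 with the replicate block). Pim1, a kinase gene that Stat3 activates, gave 1.03 ± 0.36 (adjusted p = 0.318), Gab1, an adaptor, 0.74 ± 0.25 (adjusted p = 0.288) and the receptor gene Lifr 0.61 ± 0.22 (adjusted p = 0.346).

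The 21 tested genes of the exit from the naive state and of the primed epiblast had a median of -0.08. Of them 9 were higher and 12 lower in TSA, where 58.1% of all tested genes were higher, and 0 passed. Nodal, a secreted signal of the epiblast, gave 1.16 ± 0.33 (limma adjusted p = 0.210, and 0.0600 with the replicate block) and Sall2, a zinc finger gene, -0.63 ± 0.24 (adjusted p = 0.367). Lef1, a Wnt effector, gave 0.59 ± 0.28 (adjusted p = 0.490) and the DNA methyltransferase gene Dnmt3a 0.45 ± 0.22 (adjusted p = 0.515).

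**Figure D4:**
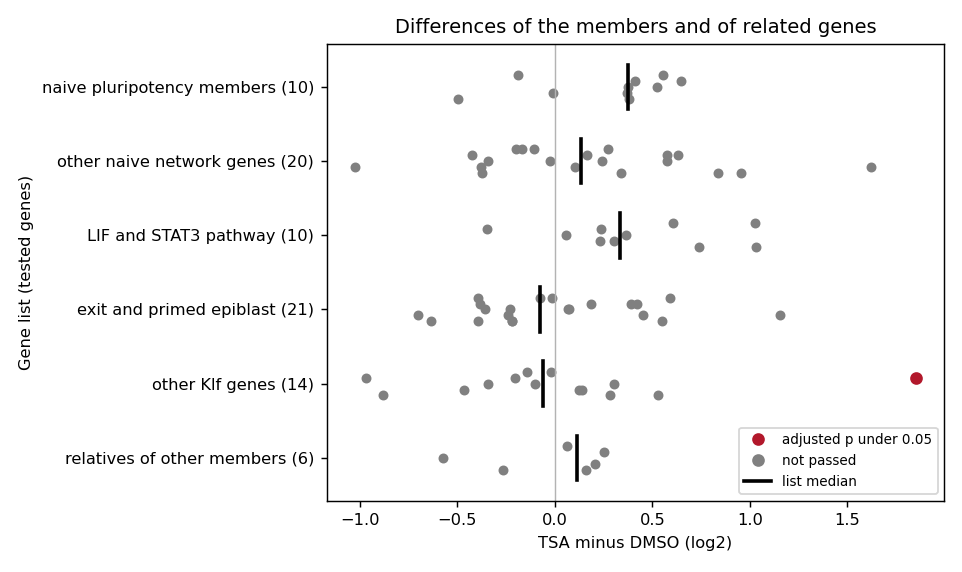
TSA minus DMSO on the log2 scale (horizontal axis) for each tested gene of the 10 members and of 5 related lists (vertical axis, number of tested genes in parentheses); bars are list medians and red marks an adjusted p under 0.05. Klf17, at 1.85, is the only gene in red.

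Among the 14 other Klf genes 1 rose and 0 fell, where 1.36% of all tested genes rose and 0.0551% fell, and the median was -0.06. Klf17, a Klf gene of germ cells and early embryos, had levels of -3.25, -3.39 and -3.56 in TSA, against -5.22, -5.18 and -5.36 in DMSO. It rose by 1.85 ± 0.20, or 3.61-fold (limma adjusted p = 0.0248, and 0.0311 with the replicate block), by 1.97, 1.80 and 1.80 on the 3 slides. Klf17 was well above background on all 6 arrays. Its level of -5.22 on DMSO replicate 1 was still near the lowest level well above background there, -5.67, so the size of its rise is uncertain. The call ended with normexp (0.49, adjusted p = 0.112), without a filter (adjusted p = 0.0574) and when any array other than TSA replicate 2 was left out (1.78 to 1.93, adjusted p = 0.0650 to 0.169), and without slide 1, 2 or 3 (adjusted p = 0.6501, 0.0525 and 0.3996). Klf6 gave -0.88 ± 0.21 (adjusted p = 0.141), Klf14 0.53 ± 0.18 (adjusted p = 0.305) and Klf12 -0.97 ± 0.48 (adjusted p = 0.512). Of 6 tested relatives of Pou5f1, Esrrb, Nr0b1, Tbx3 and Tfcp2l1, 0 passed, and the lowest adjusted p was that of Pou2f1, for Oct1, at -0.57 ± 0.39 (adjusted p = 0.623). The kinase genes Akt1 and Akt2, whose products Tcl1 binds, gave 0.15 ± 0.32 and 0.07 ± 0.44, and the Tcl1 relative Mtcp1 gave -1.23 ± 0.40 (limma adjusted p = 0.271, and 0.0601 with the replicate block). Mtcp1 was well above background on 5 of 6 arrays. On TSA replicate 2 its level was -5.92, where the lowest level well above background was -4.86, so part of its difference lies near the floor.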

How the data were processed

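Total RNA from 3 TSA and 3 DMSO samples was hybridised to single-colour (Cy3) Agilent arrays. Per the file headers, the deposited intensity values were extracted with Agilent's own software (Feature Extraction 10.7, per the submitters' processing notes), background-subtracted and detrended within an array. The authors also deposited a table on the log2 scale, with a normalization not given in the sources used here; it correlated with the values used here at 0.995 on each array, its column medians were 6.31 to 6.34, and its centring is unknown. Control spots and outlier-flagged spots (57 to 84 per array) were left out, the 75th percentile was subtracted, and probes well above background on at least 3 of 6 arrays were tested with limma 3.58.1 in R 4.3.3 (lmFit, eBayes, two-sided, threshold 0.05, treatment the only term); errors are moderated standard errors. RefSeq accessions named 27479 probes. The series text calls the samples independent experiments. TSA and DMSO arrays of the same number, which share a slide, deviated together (correlations 0.484, 0.614 and 0.585, against -0.568 to 0.0916 for other pairs), so the numbers pair the samples. TSA arrays always sat at one slide position and DMSO arrays at another, so that treatment cannot be told apart from position. The normexp alternative used median spot signals. Members, lists and tests were chosen with earlier results of these data known. The rule for named genes takes all members and, from each related list, up to 4 genes with the smallest p and any that passed, and for a member the gene closest in level over the 6 arrays. One gene of a related list is not reported here. The fit was also run on simulated data with noise set below that of these data, which does not show what changes these arrays could detect. Files were parsed in Python 3.11.15 (pandas 2.3.3, numpy 2.4.6), and plots were made in matplotlib 3.10.9.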

Additional observations from a re-analysis of the deposited data

How the results depend on the processing

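Under every alternative with a test 0 of the 10 genes passed, with a lowest adjusted p of 0.0503 for Tcl1 with array weights, and the median difference of the 10 stayed between 0.15 and 0.52. With the slide as a replicate block, 617 probes were higher and 41 lower in TSA, against 259 and 10 without it, and no call among the 10 changed. Array weights gave 2099 higher and 862 lower, and no filter 58 and 0. Higher probes numbered 127 with normexp, 148 with quantile normalization, 137 with median centring and 142 in the authors' table. Leaving out 1 array or 1 slide gave 0 to 575 higher and 0 to 54 lower probes, with calls only without TSA replicate 2; elsewhere the lowest limma adjusted p was 0.0509 to 0.589, and 1337 to 3182 probes were higher at an unadjusted p under 0.05. Directions turned for Klf2 with array weights (-0.14), when single arrays were left out (-0.21 to 0.67) and without slide 2 (-0.049); for Tbx3 with array weights (0.17), when single arrays were left out (-0.12 to 0.19) and without slide 1 (0.093) or slide 2 (0.032); and for Nr0b1 when single arrays were left out (-0.37 to 0.054). The cause was not tested. The number of arrays limits every value.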
